A study of Mus musculus with 9 samples.

Results

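The genes described here are 7 members of the ion-handling machinery of the photoreceptor, namely the potassium channel subunits Kcnj14, Kcne2 and Kcnv2, the chloride channels Ano2 and Clcn2, the sodium pump subunit Atp1b2 and the calcium exchanger Slc24a2. They were chosen by name among 55487 gene rows, with the differences between Tet tcKO and the other genotypes already known, and all 7 were present and passed the filter on low values that left 21330 genes for testing. Whole retinas were profiled by RNA-seq at postnatal day 21 (P21) in 3 genotypes on a C57 BL/6J background, with 3 libraries per genotype and 2 animals pooled in each library. In Tet tcKO retinas the floxed genes Tet1, Tet2 and Tet3, which encode the enzymes that oxidise 5-methylcytosine, were conditionally deleted by a Chx10::Cre-GFP transgene active in retinal progenitor cells. The transgene is mosaic, which the breeders' carriage of Cre on both sides was meant to reduce, so that cells without recombination can remain. The tHet retinas carried the same transgene and were heterozygous for the 3 floxed genes, and thus share with Tet tcKO the exposure to Cre. The Cre- retinas carried no transgene, were labelled WT with no statement on their floxed alleles, and came from separate Cre- breeders, so that breeding line and transgene cannot be told apart when Cre- is one side of a comparison.

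Photoreceptors hold a standing current in darkness, in which cations enter the outer segment through cyclic nucleotide-gated channels and potassium leaves through channels of the inner segment. The sodium pump of the inner segment restores both gradients, and potassium-dependent sodium/calcium exchangers of the outer segment carry calcium out of the cell. Voltage-gated potassium and hyperpolarisation-activated cation channels of the inner segment shape the voltage response to light, and calcium-activated chloride channels act at the synaptic terminal. The label that joins these genes is the inner segment, but Ano2 is known mainly from the photoreceptor terminal. Slc24a2 belongs to the exchangers that are placed above in the outer segment. RNA from whole retina gives no location within a cell, so the location was not checked here.

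The libraries held between 9627927 and 21108256 reads on genes, so that 1 read was worth between 0.0474 and 0.104 CPM, the unit of the deposited values in which the reads of a gene are scaled to all reads on genes of the library. In Tet tcKO replicate 3 the ribosomal RNA gene CT010467.1 took 28.7% of the reads, against 3.72% in tHet replicate 3 and at most 0.226% in the other 7 libraries, which lowers the CPM of every other gene in that library. Leaving this gene out of the totals shifted the median log2 fold change (log2FC) of all genes by 0.143 for Tet tcKO versus Cre- and by 0.126 for Tet tcKO versus tHet, and values on that scale are given below where they change an order. As a check of the genotype labels, Tet3 ranged from 99.2 to 151.9 CPM in Tet tcKO against 213.3 to 268.2 CPM in Cre- and 155.3 to 288.1 CPM in tHet, whereas Tet1 and Tet2 overlapped between the genotypes. Counts over a whole gene do not resolve the floxed exons. The authors examined reads spliced into those exons and report a stepwise decrease of their share from Cre- through tHet to Tet tcKO. The summed CPM of 8 rod markers in the Tet tcKO libraries was 8.98%, 30.6% and 15.2% of the Cre- mean in replicates 1, 2 and 3, and 7 of the 8 were lower past both thresholds. The sum of 8 cone markers was 513%, 432% and 328% of the Cre- mean, and 7 of the 8 were higher past both thresholds. In RNA from a whole tissue, fewer cells of a type and less RNA per cell cannot be told apart, and this holds for every value below.

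In Cre- retinas the 7 genes spanned a wide range of transcript levels. Per kilobase of exon, Atp1b2 was highest at 171.0 ± 12.7 CPM (SD, n = 3), followed by Kcnj14 at 101.0 ± 16.2, Kcnv2 at 72.1 ± 18.6, Ano2 at 44.4 ± 0.88, Kcne2 at 24.0 ± 0.93, Slc24a2 at 10.2 ± 1.47 and Clcn2 at 1.99 ± 0.32 CPM per kb. Only the neighbours Kcnj14 and Kcnv2 had overlapping libraries in this order. In tHet the order was the same, with overlap also between Kcnv2 and Ano2. In Tet tcKO the order became Atp1b2 at 223.2 ± 53.5, Ano2 at 33.8 ± 7.68, Kcnv2 at 33.6 ± 7.98, Slc24a2 at 14.4 ± 3.41, Kcnj14 at 12.9 ± 11.7, Kcne2 at 4.71 ± 2.13 and Clcn2 at 2.15 ± 0.55 CPM per kb. There, Atp1b2 stood clear of Ano2 and Kcnv2 stood clear of Slc24a2, and all other neighbours overlapped. Kcnj14 thus moved from the second to the fifth place and below Slc24a2 in mean, although these 2 overlapped.

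**Figure D1:**
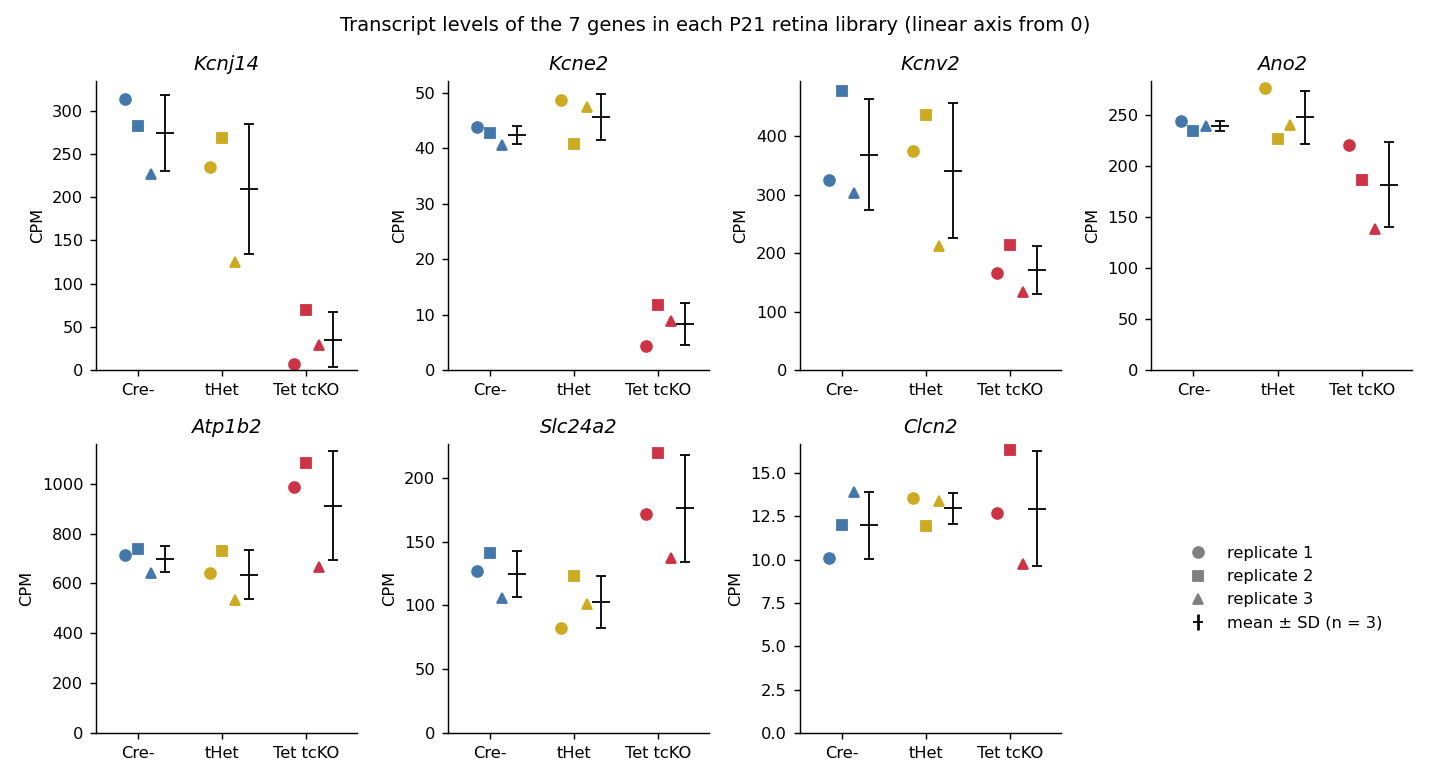
CPM of each gene (linear axis from 0) in the 3 libraries of Cre-, tHet and Tet tcKO, with a symbol for each replicate number and the mean ± SD of n = 3 beside them. All Tet tcKO libraries lie below all others for Kcnj14, Kcne2 and Ano2, whereas those of Clcn2 lie among the others.

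Of the potassium channel subunits, Kcnj14, which encodes a pore-forming inward rectifier subunit, showed the lowest level relative to controls. The gene lies on the minus strand of chromosome 7 (GRCm38, chr7:45816460-45824782) and its main transcript encodes 434 residues. Its transcript level was 313.6, 282.7 and 226.7 CPM in Cre- replicates 1 to 3, 234.5, 268.2 and 124.8 CPM in tHet, and 6.71, 69.5 and 28.8 CPM in Tet tcKO. The Tet tcKO libraries did not overlap with either control, and replicate 1 held 2.45% of the Cre- mean while replicate 2 held 25.3%. The log2FC was -3.47 (SE 0.49) versus Cre- and -3.02 (SE 0.49) versus tHet. Leaving out single libraries moved these to between -4.23 and -2.59 and to between -3.78 and -2.14, the ends being set by Tet tcKO replicates 2 and 1. These differences belong to the contrasts known when the genes were chosen and are therefore given for all 7 genes as a description with no p-value, and a gene is called where it passed an absolute log2FC of 1 and a Benjamini-Hochberg adjusted p of 0.01 in the limma fit over all genes. Kcnj14 was called in both contrasts, and in neither without Tet tcKO replicate 3, although the log2FC was then -3.60 and -3.15. The call versus tHet was also lost with CT010467.1 left out, at a log2FC of -2.88, and with edgeR on the recovered reads, at -2.51. The order of the 3 Tet tcKO libraries, lowest in replicate 1 and highest in replicate 2, was the order of their rod marker sums, whose part in this result was not tested.

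Kcne2 encodes a small accessory subunit with a single membrane span that associates with several potassium channels and with hyperpolarisation-activated channels. It lies on the plus strand at chr16:92292389-92298129, and its coding sequence spans 123 codons. Kcne2 stood at 43.8, 42.7 and 40.6 CPM in Cre-, 48.7, 40.8 and 47.4 CPM in tHet, and 4.33, 11.8 and 8.85 CPM in Tet tcKO, the last from 73, 179 and 147 reads. The Cre- libraries lay within a narrow range and every Tet tcKO library was far below both controls. The log2FC was -2.38 (SE 0.28) versus Cre- and -2.48 (SE 0.28) versus tHet. Kcne2 was called in both contrasts under all 22 alternative settings. The authors list Kcne2 among mature cone-specific transcripts and report it as decreased in their bulk RNA-seq. Which cells held its transcripts was not tested here. Kcne2 is also known from epithelia of the eye and brain, and the summed markers of such tissue were also lower in Tet tcKO. The sum of 5 pigment epithelium markers was 10.5 to 16.9 CPM in Tet tcKO, 24.3 to 59.2 in Cre- and 47.7 to 63.7 in tHet. The sum of 3 choroid plexus and ciliary markers was 15.1 to 22.6 CPM, against 23.4 to 94.2 and 67.6 to 84.5 CPM. No marker of either list was at 0 in any library. Of the 5 pigment epithelium markers, 2 were called lower versus Cre- and 3 versus tHet, while Best1 had log2FC values of 0.31 and 0.56. Of the 3 choroid plexus and ciliary markers, 0 were called versus Cre- and 1, lower, versus tHet. Both sums varied several-fold among the Cre- libraries, and their part in the Kcne2 result was not tested.

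Kcnv2 encodes an electrically silent voltage-gated subunit that joins other potassium channel subunits and modifies their current, and loss of the human gene causes cone dystrophy with supernormal rod responses. It lies on the plus strand at chr19:27322588-27337179. Transcripts of Kcnv2 reached 324.8, 477.0 and 303.0 CPM in Cre-, 374.3, 435.8 and 212.2 CPM in tHet, and 166.2, 214.5 and 133.6 CPM in Tet tcKO. All Tet tcKO libraries were below Cre-, and Tet tcKO replicate 2 was just above tHet replicate 3. Without CT010467.1 in the totals no Tet tcKO library reached a tHet library. The log2FC was -1.10 (SE 0.28) versus Cre- and -0.95 (SE 0.28) versus tHet, and neither was called. Versus Cre- the gene was called under 8 of 22 alternatives, among them edgeR and DESeq2 on the recovered reads, and versus tHet under 1, in which tHet replicate 3 was left out. Its log2FC versus Cre- was past the fold threshold in the main fit, where the gene missed the call on the adjusted p. Without CT010467.1 the log2FC became -0.94, short of the fold threshold.

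**Figure D2:**
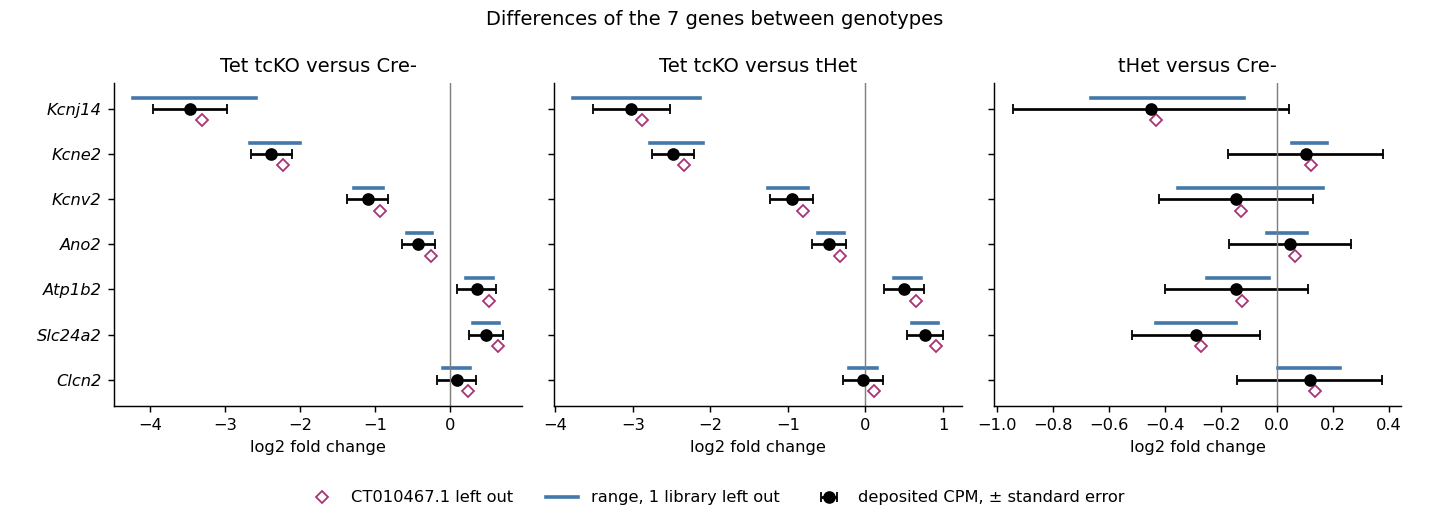
Log2 fold changes of the 7 genes in the 3 contrasts (each panel with its own horizontal axis), as points with the standard error, with the value without CT010467.1 as diamonds and the range over fits that left out 1 library as bars. The bars of Kcnj14 and Kcne2 lie far below 0 in both Tet tcKO contrasts, and no gene passes the test between tHet and Cre-.

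The chloride channels showed smaller differences. Ano2 encodes a calcium-activated chloride channel of the anoctamin family and spans 349708 bases on the plus strand at chr6:125690419-126040126. Ano2 stood at 243.8, 234.3 and 239.3 CPM in Cre-, 276.4, 226.3 and 240.6 CPM in tHet, and 220.6, 186.6 and 138.3 CPM in Tet tcKO. All Tet tcKO libraries were below both controls, by a small margin in replicate 1, which held 92.2% of the Cre- mean. The log2FC was -0.42 (SE 0.22) versus Cre- and -0.47 (SE 0.22) versus tHet, and Ano2 was not called under any setting. Replicate 3, the library with the high ribosomal share, held the lowest value, and without CT010467.1 it read 194.0 CPM and the log2FC versus Cre- was -0.26. The order of the Tet tcKO libraries was not that of the rod marker sums, since replicate 1, lowest for rods, was highest for Ano2. The part of the rod marker sums in the Ano2 values was not tested.

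Clcn2 encodes a voltage-gated chloride channel that is also known from glia, where Hepacam and Mlc1 are its partners. It lies on the minus strand at chr16:20702964-20717746, and its exons overlap those of Fam131a and Polr2h on the opposite strand. The library kit keeps the strand but the counting setting is not given in the sources used here, so reads of these genes may not have been told apart. Its transcript level was 10.1, 11.96 and 13.9 CPM in Cre-, 13.5, 11.9 and 13.4 CPM in tHet, and 12.7, 16.3 and 9.75 CPM in Tet tcKO. The 3 genotypes overlapped, and the counts behind these values were 115 to 282 reads. The log2FC was 0.09 (SE 0.26) versus Cre- and -0.03 (SE 0.26) versus tHet, with a sign that changed with the library left out and, versus tHet, also with CT010467.1 left out, where the log2FC was 0.11. The sum of 5 Müller glia markers was 628.0 to 986.2 CPM in Tet tcKO against 1330 to 1766 in Cre- and 1248 to 1443 in tHet, none of the markers being at 0, and its part in the values of Clcn2 was not tested. Of the 5 markers, Glul and Rlbp1 were called lower in both contrasts and 3 did not pass. Glul, at a mean of 1010 CPM in Cre-, made up most of the sum, whereas Slc1a3 had a log2FC of 0.12 versus Cre- and 0.44 versus tHet, with all Tet tcKO libraries above tHet.

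The pump subunit Atp1b2 and the exchanger Slc24a2 had higher means in Tet tcKO. Atp1b2 encodes a beta subunit of the Na+/K+-ATPase that is needed for the pump to reach the cell surface, and is also made by glia. It lies on the minus strand at chr11:69599736-69605942. Transcripts of Atp1b2 reached 715.1, 739.8 and 640.5 CPM in Cre-, 642.1, 729.2 and 534.8 CPM in tHet, and 985.6, 1084 and 666.1 CPM in Tet tcKO. Replicates 1 and 2 of Tet tcKO were above all controls, whereas replicate 3 overlapped with both groups, and without CT010467.1 it read 934.5 CPM and lay above all of them. The log2FC was 0.36 (SE 0.26) versus Cre- and 0.50 (SE 0.26) versus tHet and stayed positive under all 22 alternatives, never being called. The Müller glia marker sum given above was lower in all 3 Tet tcKO libraries, with 2 of its 5 markers called lower, and its part in the values of Atp1b2 was not tested. Most of that sum was Glul, and by immunostaining the authors counted a higher share of LHX2+ Müller glia in Tet mutant retinas.

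Slc24a2 encodes a potassium-dependent sodium/calcium exchanger known from cones, while its relative Slc24a1 serves rods. Slc24a2 lies on the minus strand at chr4:86983124-87230477, and RNA from whole retina does not show which cells hold its transcripts. Its transcript level was 126.6, 141.4 and 105.7 CPM in Cre-, 82.5, 123.2 and 101.4 CPM in tHet, and 171.3, 219.8 and 136.9 CPM in Tet tcKO. All Tet tcKO libraries were above tHet, and replicate 3 overlapped with Cre- only on the deposited scale, reading 192.0 CPM without CT010467.1. The log2FC was 0.48 (SE 0.23) versus Cre- and 0.77 (SE 0.23) versus tHet, positive under all 22 alternatives and never called. Slc24a2 in the Tet tcKO libraries was 138%, 176% and 110% of the Cre- mean, against 513%, 432% and 328% for the summed cone markers.

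Counted over the group, 2 of 7 genes were called lower and 0 higher in Tet tcKO versus Cre-, where 3.60% of all tested genes were called, 1.57% as lower and 2.03% as higher. The same 2, Kcnj14 and Kcne2, were called versus tHet, where 3.00% of all genes were called, 1.61% as lower and 1.39% as higher. Both contrasts use the same Tet tcKO libraries and are not independent. A further reading is the overlap of libraries, in which 4 genes had all Tet tcKO libraries below all Cre- libraries (9.60% of all genes) and 0 had all above (10.0%), so that 4 of 7 did not overlap against 19.6% of all genes. Versus tHet 3 lay below (9.68%) and 1 above (7.35%), so that again 4 of 7 did not overlap, against 17.0%. Without CT010467.1 in the totals, 4 genes lay below and 2 above in each contrast, so that 6 of 7 did not overlap. On that scale 31.5% of all genes did not overlap versus Cre-, 8.19% lying below and 23.3% above, and versus tHet 27.7% did not, 8.79% lying below and 19.0% above. The median log2FC of the 7 genes was -0.42 versus Cre- and -0.47 versus tHet, beside medians of 0.00 and -0.06 over all tested genes. As the genes were chosen with these contrasts known, the counts describe the group and nothing further is read from them. Leaving CT010467.1 out changed the whole-table calls versus Cre- from 434 higher and 334 lower to 613 and 222, and versus tHet from 297 and 343 to 427 and 215.

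**Figure D3:**
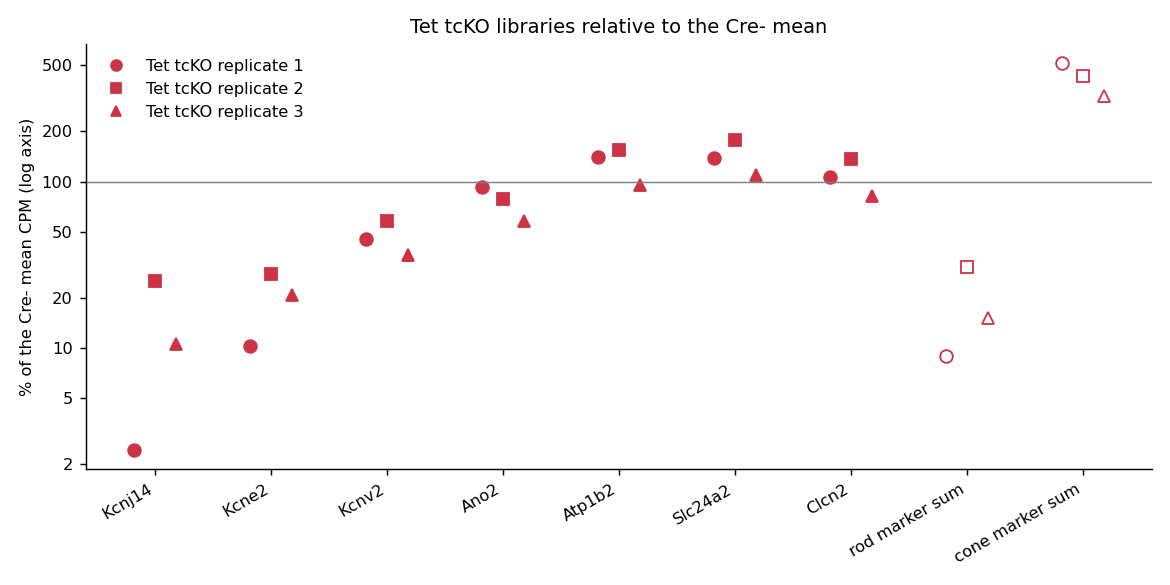
Level of each gene in the 3 Tet tcKO libraries as a percentage of the Cre- mean (log axis), with the sums of the 8 rod and 8 cone markers as open symbols and the line at 100%. Kcnj14 and Kcne2 lie between 2.45% and 27.8%, beside 8.98% to 30.6% for the rod sum, and Slc24a2 reaches 176% beside 328% to 513% for the cone sum.

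The comparison of tHet with Cre- addresses whether these genes differ between retinas with Cre and single floxed alleles and retinas without Cre. It holds no Tet tcKO library, but its libraries are the control sides of the contrasts known when the genes were chosen. Its p-values are therefore not independent of that choice. By limma 0 of the 7 genes were called, against 0.0422% of all genes, and 0 had an unadjusted p under 0.05, while edgeR and DESeq2 also called 0. The lowest adjusted p of the 7 was 0.9998, and over the alternative settings the adjusted p ranged from 0.698 to 1. The log2FC values were -0.45 (SE 0.49) for Kcnj14, 0.10 (SE 0.28) for Kcne2, -0.15 (SE 0.28) for Kcnv2, 0.05 (SE 0.22) for Ano2, -0.15 (SE 0.26) for Atp1b2, -0.29 (SE 0.23) for Slc24a2 and 0.12 (SE 0.26) for Clcn2. The libraries of all 7 genes overlapped, where 11.1% of all genes did not, 5.78% lying above and 5.37% below. A p that misses the threshold does not show that the genes are alike in the 2 control genotypes.

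Proteins known to assemble with some of these channels were examined next, in Tet tcKO versus Cre-. Kcnq1 fell under the filter. Kcnb2, a pore-forming subunit of voltage-gated potassium channels, had a log2FC of -0.34 (SE 0.25) and did not pass. Among the channels that Kcne2 can join, Hcn2 had a log2FC of -0.40 (limma adjusted p = 0.594) and the voltage-gated potassium channel Kcnh2 had -0.54 (limma adjusted p = 0.254), and neither passed the thresholds. The glial partners of Clcn2 did not pass either, with -1.34 (SE 0.41) for Hepacam, which was at most 5.47 CPM in the Cre- libraries, and 0.11 (SE 0.25) for Mlc1. Hepacam passed only in the fit without Tet tcKO replicate 2, with a log2FC of -1.78 (limma adjusted p = 0.00787).

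**Figure D4:**
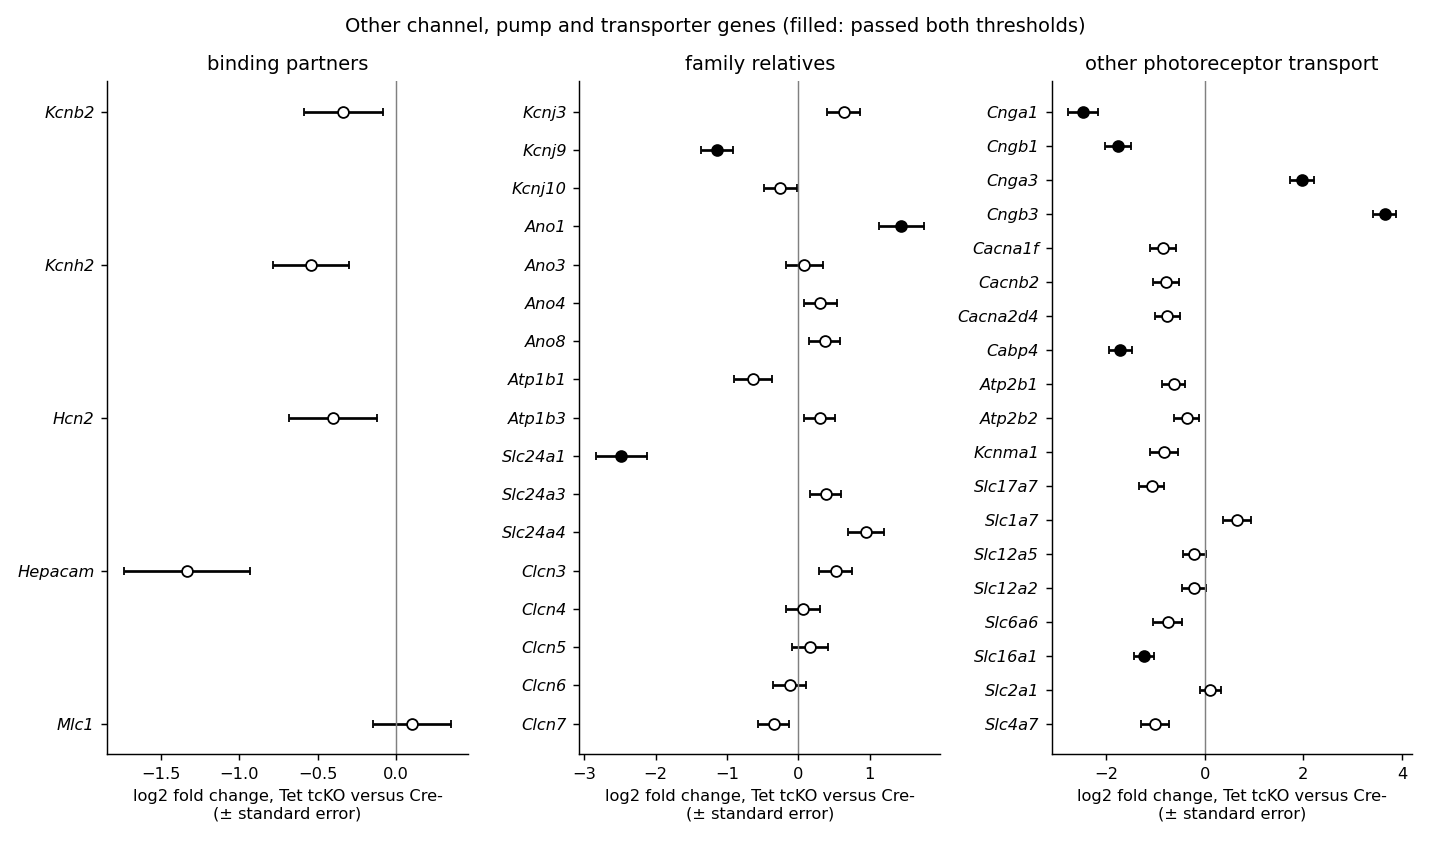
Log2 fold change of Tet tcKO versus Cre- with its standard error for 5 partners, for the family relatives named in the text and for the other photoreceptor transport genes, filled where both thresholds were passed. Filled points lie on the lower side for Slc24a1, Kcnj9, Cnga1, Cngb1, Cabp4 and Slc16a1 and on the higher side for Ano1, Cnga3 and Cngb3.

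Of 43 relatives in the same gene families, 34 were tested, and versus Cre- 1 rose, 2 fell and 31 did not pass, with a median log2FC of 0.06. Of all tested genes, 2.03% were called higher and 1.57% lower in this contrast, with a median log2FC of 0.00. Slc24a1, the rod exchanger, averaged 457 ± 279 CPM in the Tet tcKO libraries beside 2247 ± 202 CPM in Cre- (SD, n = 3). Its log2FC was -2.48 (SE 0.36, limma adjusted p = 0.000119), and -2.68 (limma adjusted p = 6.46e-05) versus tHet. Kcnj9, a G protein-gated inward rectifier subunit, had a log2FC of -1.14 (SE 0.23, limma adjusted p = 0.00294), and it was not called versus tHet at -0.90 (limma adjusted p = 0.0196). The call of Kcnj9 versus Cre- was lost without Cre- replicate 3 or without Tet tcKO replicate 1 or 3, with limma adjusted p = 0.0260, 0.0312 and 0.0205. It was also lost with CT010467.1 left out, where the log2FC was -0.98, and with no filter on low values (limma adjusted p = 0.0128). Versus tHet it passed only without Tet tcKO replicate 2, at a log2FC of -1.17 (limma adjusted p = 0.00241). Ano1, another calcium-activated chloride channel, rose by a log2FC of 1.44 (SE 0.31, limma adjusted p = 0.00568) from a low level of 2.65 ± 0.53 CPM, and was not called versus tHet at 0.54 (limma adjusted p = 0.417). The tHet libraries were also all above Cre- for Ano1, at 4.18 to 6.96 CPM against 2.23 to 3.24 CPM. The log2FC of tHet versus Cre- was 0.91 and was not called. Versus Cre-, Ano1 in Tet tcKO lost its call with no filter on low values (limma adjusted p = 0.0157) and in each fit that left out a Cre- library (limma adjusted p of 0.0117, 0.0222 and 0.0154 without replicates 1, 2 and 3) or a Tet tcKO library (0.0581, 0.0103 and 0.0155). The 14 other relatives at 20 CPM or more lay between a log2FC of -0.64 for Atp1b1, the alternative beta subunit of the pump, and 0.95 for Slc24a4, the other exchanger found in cones. Slc24a4 was above both controls in all Tet tcKO libraries (limma adjusted p = 0.0236 versus Cre- and 0.0177 versus tHet) and was called versus tHet in several alternatives and versus Cre- with CT010467.1 left out, at a log2FC of 1.12 (limma adjusted p = 0.00458). The chloride channel relatives Clcn3, Clcn4, Clcn5, Clcn6 and Clcn7 had log2FC values of 0.52, 0.06, 0.16, -0.12 and -0.35, and the anoctamins Ano3, Ano4 and Ano8 had 0.08, 0.31 and 0.37. Kcnj3 and Kcnj10, inward rectifier subunits of neurons and glia, had 0.64 and -0.25, and Atp1b3 and Slc24a3 had 0.30 and 0.38. These genes passed in neither contrast.

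Among 19 other transport genes of the photoreceptor, 2 rose and 4 fell versus Cre-, with a median log2FC of -0.76, and 2 rose and 6 fell versus tHet. Over all tested genes 2.03% were called higher and 1.57% lower versus Cre-, and 1.39% and 1.61% versus tHet. The rod cyclic nucleotide-gated channel subunits fell, with log2FC values of -2.46 for Cnga1 (limma adjusted p = 2.29e-05) and -1.76 for Cngb1 (limma adjusted p = 0.000179). The cone subunits rose, with 1.97 for Cnga3 (limma adjusted p = 1.97e-05) and 3.65 for Cngb3 (limma adjusted p = 2.28e-09). Cnga1, Cnga3 and Cngb3 are also among the rod and cone markers used above. Cabp4, a regulator of the synaptic calcium channel, fell by 1.71 on the log2 scale (limma adjusted p = 6.95e-05), and the lactate transporter Slc16a1 fell by 1.24 (limma adjusted p = 0.000481). The synaptic calcium channel Cacna1f and the bicarbonate transporter Slc4a7 fell versus tHet, by 1.35 (limma adjusted p = 0.00302) and 1.28 (limma adjusted p = 0.00684), and had log2FC values of -0.85 and -1.01 versus Cre- that did not pass. With CT010467.1 left out, neither passed versus tHet (limma adjusted p = 0.0119 and 0.0160), nor did Slc16a1, whose log2FC was then -0.90. These 3 calls versus tHet were also lost without tHet replicate 1 or 2 and without Tet tcKO replicate 1 or 3, and those of Cacna1f and Slc4a7 with no filter on low values. Slc16a1 fell short of the fold threshold versus tHet with TMM scaling, edgeR and DESeq2 too. Slc4a7 also lost its call versus tHet without Cre- replicate 3, and versus Cre- it was called with TMM scaling, edgeR and DESeq2, among others.

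Ratios within a library do not depend on the total and so are free of the ribosomal share of Tet tcKO replicate 3. These pairs were examined after their values were seen, and are given with no test. Atp1b2 per kilobase was 2.47 ± 0.26 times Atp1b1 in Tet tcKO, against 1.25 ± 0.25 in Cre- and 1.26 ± 0.42 in tHet (SD, n = 3), with no overlap between Tet tcKO and either control. The ratio of Slc24a2 to Slc24a1 was 0.206 ± 0.124, against 0.0239 ± 0.0052 and 0.0173 ± 0.0056. Slc24a2 relative to Slc24a4 was 0.75 ± 0.10 in Cre- and 0.55 ± 0.15 in Tet tcKO, with overlapping libraries. Also computed, but not drawn, were Kcnj14 to Kcnj9, Ano2 to Ano3 and Clcn2 to Clcn3. Their mean ratios in Tet tcKO were 0.987, 5.10 and 0.0970. In Cre- they were 4.14, 7.17 and 0.131, and in tHet 3.73, 7.27 and 0.145. Of these, only Kcnj14 to Kcnj9 had all Tet tcKO libraries below both controls.

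**Figure D5:**
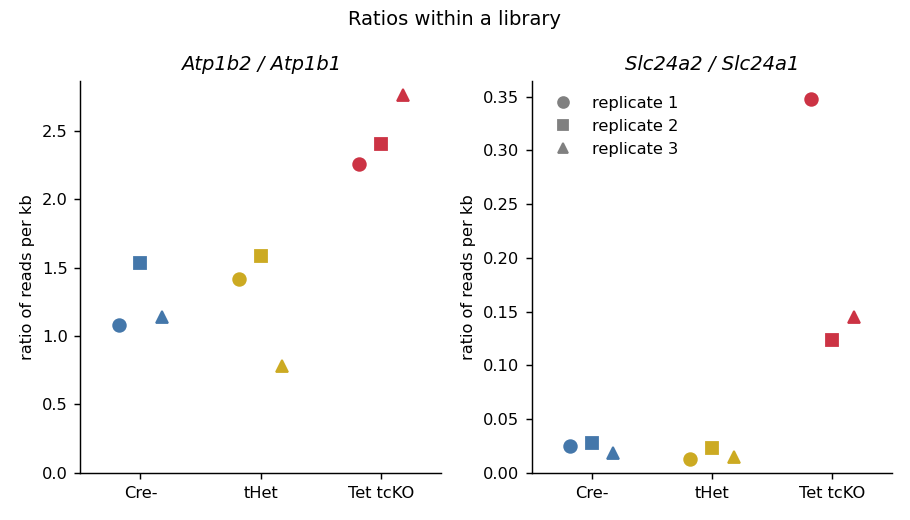
Ratio of reads per kilobase between gene pairs in each library (linear axes from 0, a symbol for each replicate number). The Tet tcKO libraries lie above all control libraries in both pairs shown, for example 2.25 to 2.76 against 0.78 to 1.58 for Atp1b2 over Atp1b1.

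Across the 9 libraries, the genes most alike to each member were found by the root mean square (rms) difference of log2(CPM + 0.5) after centring each gene. The 9 libraries include the genotype difference by which the members were chosen, so the likeness is given as a description. Among the nearest to Kcnj14 were Aqp1 (rms difference 0.120) and Prph2 (0.257), beside a spread of Kcnj14 itself about its mean of 1.75. Prph2 encodes an outer segment rim protein and Aqp1 a water channel. Nearest to Kcne2 were Cnga1 (0.113), Slc24a1 (0.189) and the rod factor Nr2e3 (0.224), with a spread of 1.19. Nearest to Kcnv2 were Abca4 (0.0918), an outer segment retinoid transporter, Tet3 (0.122) and the cilium gene Bbs5 (0.122), with a spread of 0.597. Genes among the nearest to the others were Pmm1, Wdpcp and Dtwd1 for Ano2, Ldb2, Acvr1c and Atg13 for Atp1b2, Pon2, Kdr and Tmem176a for Slc24a2, and Gmeb1 and Pwwp3a for Clcn2, at differences of 0.0508 to 0.136 beside spreads of 0.210 to 0.394. Acvr1c had a mean of only 0.40 CPM in Cre-. Among the 7 genes themselves, Atp1b2 and Slc24a2 were closest (0.192) and Kcnj14 and Slc24a2 farthest apart (1.99).

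The sequence before the start site was available for 4 of the 7 genes, Kcne2, Ano2, Slc24a2 and Clcn2, from RefSeq (GRCm38.p6). Shown are the 250 bases before a start site for Kcne2, a gene called lower in Tet tcKO, and for Ano2 and Clcn2, which were not called, 5′ to 3′ on the strand of the gene, with matches to the searched motifs in capitals.
Kcne2: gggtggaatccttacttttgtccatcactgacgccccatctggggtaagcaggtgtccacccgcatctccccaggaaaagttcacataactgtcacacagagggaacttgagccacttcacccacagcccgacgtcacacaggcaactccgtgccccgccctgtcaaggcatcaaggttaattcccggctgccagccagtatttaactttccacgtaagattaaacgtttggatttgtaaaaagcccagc
Ano2: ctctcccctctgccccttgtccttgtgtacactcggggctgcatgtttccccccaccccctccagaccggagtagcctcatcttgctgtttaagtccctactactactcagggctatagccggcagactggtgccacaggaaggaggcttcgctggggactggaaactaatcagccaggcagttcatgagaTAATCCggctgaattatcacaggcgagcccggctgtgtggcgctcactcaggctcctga
Clcn2: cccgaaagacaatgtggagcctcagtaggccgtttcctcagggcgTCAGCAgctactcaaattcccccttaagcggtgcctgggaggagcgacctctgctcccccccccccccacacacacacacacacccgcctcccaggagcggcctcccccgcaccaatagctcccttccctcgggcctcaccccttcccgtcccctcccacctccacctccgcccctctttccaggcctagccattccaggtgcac
These windows lie at chr16:92292139-92292388 (plus), chr6:125690169-125690418 (plus) and chr16:20716637-20716886 (minus). Both strands were searched for TAATCC, the core bound by the photoreceptor factors CRX and OTX2, for TGCTGA, part of the NRL motif, and for AAGTCA, part of the NR2E3 motif, and the matches found do not overlap. Ano2 held TAATCC with its first letter 59 bases before the start, and Clcn2 held TGCTGA in reverse, printed as TCAGCA, beginning 205 bases before it. Kcne2 held none of the 3, and neither did the first Slc24a2 window at chr4:87230541-87230790 (minus). At later start sites, Ano2 held TGCTGA 112 bases and Slc24a2 held AAGTCA in reverse 37 bases before the start. Among 32536 windows of the same length, 6.25% held TAATCC, 16.1% TGCTGA and 13.1% AAGTCA, counting a match on either strand. The first windows of Kcne2, Ano2, Slc24a2 and Clcn2 held 9, 8, 9 and 11 CG pairs, beside a median of 6 over all windows. Fewer CG pairs were held by 59.4%, 56.7%, 59.4% and 64.2% of all windows, in the same order. The windows at later start sites held 1 for Kcne2, 12 and 4 for Ano2 and 2 for Slc24a2. The start site behind the Clcn2 window lies 1110 bases inside the GENCODE start of the gene.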

How the data were processed

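Whole P21 retinas were sequenced after ribosomal RNA depletion with a stranded SMARTer kit, as 1 pool of 9 libraries. The submitters' processing notes and methods name STAR 2.7.0f, HTSeq 0.11.2 and edgeR 4.2.2 on mm10. The annotation and the strand and overlap settings are not given in the sources used here. The authors deposited CPM per gene and library, scaled to all reads counted on genes. Their own log2 fold changes, p-values and group averages were deposited too and were not used. Dividing each CPM by the value of 1 read gave whole reads for 100% of values (tolerance 0.02).

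The filter kept a gene that reached 0.5 CPM in 3 or more libraries. Values were tested as log2(CPM + 0.5) by limma 3.58.1 (lmFit, then eBayes with a trend), 1 mean per genotype over all 9 libraries. This scale understates changes of low genes. P-values were Benjamini-Hochberg adjusted over 21330 genes. For a call, the adjusted p had to be under 0.01 and the log2 fold change 1 or more in size. Alternatives were edgeR 4.0.16 and DESeq2 1.42.0 on recovered reads, other scalings, filters, pseudocounts and thresholds, only the 6 libraries compared, a replicate block, and leaving out each library. The scripts were tested on simulated data.

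Named genes were the 7 members, partners, called genes of the other lists, relatives at a mean of 20 CPM or more, and the 3 most similar genes of each member. Some genes under this rule are not reported here, and no count over the partners is given. Members and lists were chosen with earlier results of these data known. Gene positions and exon lengths came from GENCODE M21 (GRCm38). Replicates are separate libraries of pooled animals, and their number limits the precision.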

Additional observations from a re-analysis of the deposited data

How the results depend on the processing

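Kcne2 was called lower in Tet tcKO under all 22 alternatives in both contrasts. The count of called members versus tHet was 1 in place of 2 with CT010467.1 left out and with edgeR, which both lost Kcnj14, and leaving out 1 library gave 1 to 3 versus either control, the lowest without Tet tcKO replicate 3. Whole-table calls versus tHet were 642 with CT010467.1 left out and 608 with edgeR, beside 640 in the main fit. Relatives called versus Cre- went from 3 to 1 with no filter and to between 1 and 3 without 1 library, and with CT010467.1 left out they stayed at 3 with Slc24a4 in place of Kcnj9. Relatives called versus tHet went from 1 to 2 at an adjusted p under 0.05, with TMM or upper-quartile scaling, with CT010467.1 left out, with edgeR, with DESeq2, with only 6 libraries and with the replicate block, and stood between 1 and 2 without 1 library. Other transport genes called versus tHet went from 8 to 5 with CT010467.1 left out and to between 5 and 11 without 1 library.

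The replicate block raised the whole-table calls from 768 to 1127 versus Cre-, from 640 to 1125 versus tHet and from 9 to 40 for tHet versus Cre-. Same-numbered libraries came from different animals, and the labels state no link between them beyond the number. Their deviations correlated between -0.35 and 0.56, and those of differently numbered libraries between -0.57 and 0.50. At an adjusted p under 0.05 the calls were 1156, 1104 and 20, with only 6 libraries 980, 1013 and 1, with DESeq2 1145, 1046 and 40, and with no filter 417, 351 and 1. Other scalings and edgeR left 1 call for tHet versus Cre-, and leaving out 1 library gave 360 to 976, 287 to 959 and 0 to 17. Among the log2 fold changes of single genes over the alternatives, 1503 kept their direction and side of the threshold, 37 lost and 26 gained a call and 54 changed sign.

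Signs turned only for small differences that passed no test. In Tet tcKO versus tHet, TMM, CT010467.1 left out, edgeR and DESeq2 gave log2 fold changes of 0.040, 0.11, 0.019 and 0.014 for Hcn2, 0.040, 0.11, 0.024 and 0.019 for Mlc1, 0.051, 0.13, 0.027 and 0.024 for Kcnj10, and 0.036, 0.11, 0.023 and 0.016 for Clcn2. For tHet versus Cre-, Ano2 was at -0.012, -0.0039 and -0.0092 with TMM, edgeR and DESeq2, and Clcn6 in Tet tcKO versus Cre- was at 0.036 with CT010467.1 left out. Leaving out 1 library gave, for tHet versus Cre-, -0.36 to 0.16 for Kcnv2 and -0.035 to 0.11 for Ano2. For Tet tcKO versus Cre- it gave -0.073 to 0.32 for Mlc1, -0.089 to 0.27 for Clcn2, -0.12 to 0.40 for Ano3, -0.11 to 0.33 for Clcn4, -0.024 to 0.40 for Clcn5 and -0.32 to 0.14 for Clcn6. For Tet tcKO versus tHet it gave -0.19 to 0.30 for Hcn2, -0.21 to 0.15 for Clcn2, -0.19 to 0.19 for Mlc1, -0.098 to 0.096 for Kcnj10, -0.19 to 0.33 for Ano3, -0.065 to 0.26 for Ano4, -0.088 to 0.34 for Clcn5 and -0.17 to 0.29 for Clcn6. The cause was not tested.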
